A study of Homo sapiens with 8 samples.

Results

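RBFOX2 binding was measured on 3 long noncoding RNAs that stay in the nucleus, MALAT1, NEAT1 and KCNQ1OT1. Their peaks were taken from 4 lists of IP over input in HEK293T cells, by a midpoint inside the annotated span of the gene, on the strand of that gene. This gave 177, 175, 180 and 190 peaks in replicates 1 to 4, or 722 of the 1118316 peaks in all. MALAT1 held 199 of them, NEAT1 227 and KCNQ1OT1 296.

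The assay was eCLIP, in which RNA fixed to proteins by ultraviolet light is pulled down with an antibody against the protein under study (IP) and then sequenced. The series had 8 samples, 4 IP libraries against RBFOX2 and 4 input libraries, numbered 1 to 4. Every sample came from HEK293T, a human embryonic kidney cell line, crosslinked with 254 nm light at 400 mJ/cm2. No genotype change, knockdown or drug is named, and 2% of each sample was set aside as the input of its IP. Nothing in the labels says that the 4 replicates were separate cultures, so each test measures the spread between these samples, which may be technical. The lists hold no expression levels, so the cell line was not checked against marker genes, and the amount of each RNA in the cells is unknown.

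RBFOX2 steers alternative splicing and binds RNA that carries GCATG. MALAT1 is a very abundant RNA of nuclear speckles, bodies that store splicing factors. NEAT1 is the scaffold of paraspeckles, bodies that form beside the speckles, and it has a short and a long form that share the same 5' end. KCNQ1OT1 is transcribed antisense from inside KCNQ1, from the paternal allele, and is known for silencing imprinted genes around it.

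All 3 genes lie on chromosome 11 of GRCh38. MALAT1 runs from 65497738 to 65506516 on the plus strand (8779 nt), and NEAT1 from 65422798 to 65445540 on the plus strand (22743 nt). KCNQ1OT1 runs from 2608328 to 2699994 on the minus strand (91667 nt). Positions below are distances in kb from the 5' end of these spans, which are genomic and take no account of exons or of where a transcript really ends.

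A sequence was at hand for MALAT1 alone, and it is shown because all 4 lists placed a peak at its end. It is a RefSeq promoter window of GRCh38.p14, chr11:65498795-65499094 on the plus strand around a transcript start at 65499045. That start lies 1.31 kb inside the annotated span. Capitals mark the 15 bases that lay inside a peak of every list.

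MALAT1 start: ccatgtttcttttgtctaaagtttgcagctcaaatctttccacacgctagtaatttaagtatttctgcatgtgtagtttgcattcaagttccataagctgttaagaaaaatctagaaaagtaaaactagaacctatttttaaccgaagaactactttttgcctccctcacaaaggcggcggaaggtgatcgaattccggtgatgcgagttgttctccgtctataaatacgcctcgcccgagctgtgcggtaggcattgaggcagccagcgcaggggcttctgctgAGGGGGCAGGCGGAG

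The letters GCATG occurred once on the gene strand of this window, at position −184 from the start and as part of TGCATG, and 0 times on the other strand. Of 35116 promoter windows of the same length, 19.6% held GCATG on the gene strand and 29.5% on either strand. TGCATG, which contains GCATG, was held by 5.23% and 9.46%. The peak at the end of the window began 21, 29, 35 and 23 nt after the start in replicates 1 to 4. Its log2 fold was −0.40, −0.23, 0.10 and −0.22 (mean −0.19 ± 0.21, SD, n = 4), so IP and input were close there and the replicates differed in sign. It was also the first peak of MALAT1 in every list. No list had a MALAT1 peak upstream of this start, and the window at the start of the annotated span (65497488 to 65497787) held neither a peak nor GCATG.

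NEAT1 stood above input in nearly all of its peaks, while MALAT1 and KCNQ1OT1 as wholes lay close to input. NEAT1 peaks had mean log2 folds of 2.10, 1.90, 1.91 and 2.27 in replicates 1 to 4. Their average of 2.04 ± 0.18 (SD, n = 4) is 4.12 times input. For MALAT1 it was 0.10, 0.07, 0.14 and 0.11 (mean 0.11 ± 0.03). For KCNQ1OT1 it was 0.17, 0.40, 0.23 and 0.25 (mean 0.26 ± 0.10). All peaks of the same lists averaged 0.20, 0.18, 0.13 and 0.17 (mean 0.17 ± 0.03). The lowest NEAT1 replicate was therefore above the highest of either other RNA and of the lists as a whole.

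Against all peaks of its own list, NEAT1 was higher by a log2 of 1.87 ± 0.17, with a positive difference in each of the 4 (two-sided exact sign-flip permutation p = 0.125). That is the smallest p that 4 replicates can give, so no such test could reach 0.05. MALAT1 differed by −0.07 ± 0.05, negative in 3 of 4 (exact p = 0.25), and KCNQ1OT1 by 0.09 ± 0.11, positive in 3 of 4 (exact p = 0.25). Adjusted over the 3 RNAs (Benjamini-Hochberg), each exact p was 0.25. The sign of the MALAT1 difference depended on the summary, since the median over peaks gave 0.083 in place of −0.07.

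Between the RNAs, within each replicate, NEAT1 exceeded MALAT1 by 1.94 ± 0.18 and KCNQ1OT1 by 1.78 ± 0.24. MALAT1 minus KCNQ1OT1 was −0.16 ± 0.11. Each of the 3 differences had the same sign in 4 of 4 replicates, with an exact sign-flip p of 0.125 before and after adjustment over the 3 pairs. By mean, the order was NEAT1, KCNQ1OT1 and MALAT1, and the last 2 lay close to each other and to all peaks. Within replicates, the order of these 2 depended on the summary. By the median over peaks, MALAT1 was higher in replicates 1, 3 and 4 (0.019, 0.084 and 0.143, against −0.0009, 0.0008 and −0.0005). KCNQ1OT1 was higher in replicate 2 (0.487 against 0.086). Outside its first kb, a cut chosen after the profile was seen, KCNQ1OT1 averaged 0.087, below the MALAT1 mean of 0.105.

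A log2 fold above 0.5 was found for 96.2%, 94.1%, 100% and 100% of NEAT1 peaks in replicates 1 to 4. It was found for 32%, 20%, 25% and 26% of MALAT1 peaks and for 39.2%, 49.3%, 40.5% and 40.6% of KCNQ1OT1 peaks, against 31.4% of all peaks over the 4 lists. A log2 fold below −0.5 was found for 23.6% of all peaks and for 0 of the 227 NEAT1 peaks. It was found for 19.5% ± 3.45 of MALAT1 and 27.1% ± 2.64 of KCNQ1OT1 peaks (SD, n = 4), so KCNQ1OT1 had the larger share on both sides of input. No NEAT1 peak of any list was below input.

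**Figure D1:**
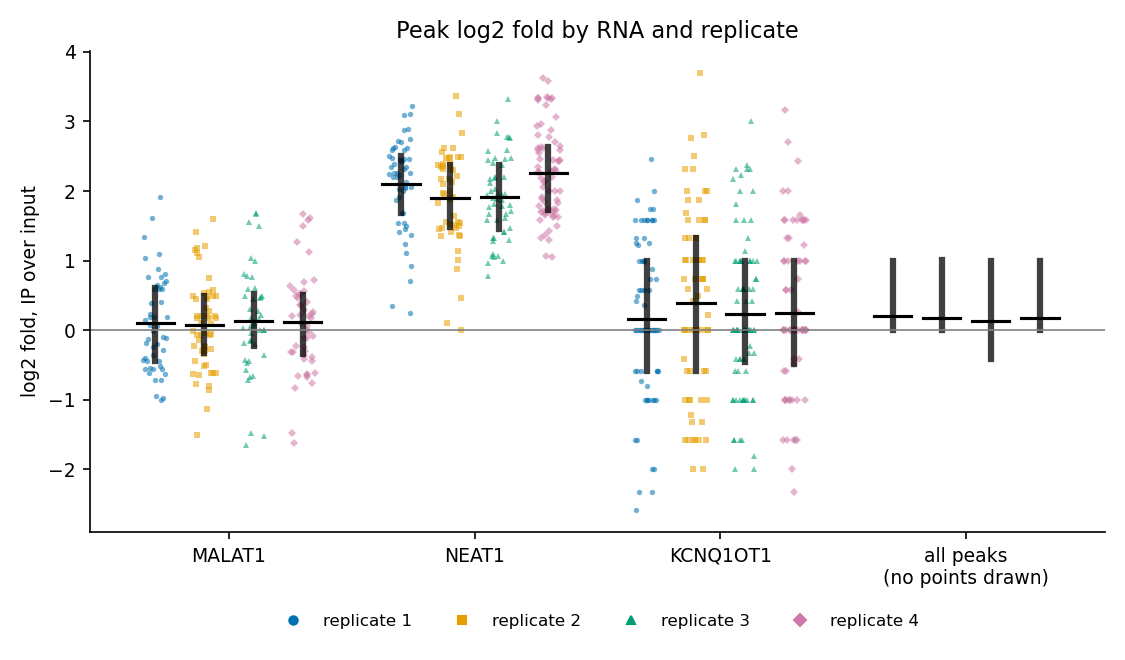
Log2 fold of IP over input for every peak of MALAT1, NEAT1 and KCNQ1OT1 (points), in replicates 1 to 4 from left to right, with the mean (horizontal line) and the lower to upper quartile (thick bar); for all peaks of each list only these are drawn. The NEAT1 means lie between 1.90 and 2.27, above those of both other RNAs and of all peaks.

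Peaks were densest on MALAT1. It had 50, 55, 44 and 50 peaks in replicates 1 to 4, or 5.70, 6.26, 5.01 and 5.70 per kb of span. NEAT1 had 53, 51, 52 and 71 peaks, or 2.33, 2.24, 2.29 and 3.12 per kb. KCNQ1OT1 had 74, 69, 84 and 69 peaks, or 0.807, 0.753, 0.916 and 0.753 per kb. MALAT1 thus had the most peaks per kb and the lowest mean fold. Replicate 4 stood apart for NEAT1, with 71 peaks against 51 to 53 in the others.

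NEAT1 peaks lay mainly at the ends of the RNA. Of its 227 peaks, 83 lay in the first 2.27 kb and 72 in the last 10% of the span, from 20.5 to 22.7 kb. The mean log2 fold was 2.48, 2.23, 2.24 and 2.68 in the first 2.27 kb (mean 2.41 ± 0.21, SD, n = 4). It was 1.85, 1.93, 1.78 and 2.15 in the last stretch (mean 1.93 ± 0.16). Between them peaks were sparse, and the lowest levels lay between 15.9 and 20.5 kb, with 1.19 ± 0.63 in 7 peaks from 15.9 to 18.2 kb and 1.01 ± 0.23 in 6 peaks beyond (replicate 4 had none there, so n = 3). The lowest single peaks of replicates 1 and 2 lay there, at 0.25 (18.6 kb) and 0.0014 (18.2 kb), close to input.

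The first 50% of the NEAT1 span averaged 2.34 ± 0.21 and the rest 1.77 ± 0.19. The difference of 0.56 ± 0.06 had the same sign in 4 of 4 replicates (exact sign-flip p = 0.125, adjusted over the 3 RNAs 0.188). The first 1000 nt held 15 to 18 peaks per list with a mean of 2.51 ± 0.25, against 1.84 ± 0.18 over the rest. All 68 of those peaks had a −log10 p of at least 3, and 99 of the 159 others did, against 1.11% of all peaks of the lists. This cut was chosen after the profile was seen and is given as a description. Over 4199 genes with peaks on either side of such a cut in every list, the median difference was −0.02 (quartiles −0.39 and 0.36), and 87.6% were below the NEAT1 difference of 0.67.

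To place the enrichment along each RNA, the chromosomes were cut into fixed windows of 100 nt, and windows with a peak in all 4 lists were tested against 0 with limma. Of 75794 windows tested, 24.6% were higher than input and 1.92% lower (Benjamini-Hochberg adjusted p of at most 0.05). Of the 227 whole windows of NEAT1, 39 had a peak in every list and were tested, and these 39 were all higher than input. Neighbouring windows can hold the same peaks, so these 39 are not independent. Their mean log2 folds ran from 1.36 to 2.91 with a median of 1.96, against a median of 0.58 over all windows tested (limma adjusted p from 0.00288 to 0.0349). With 1 replicate left out, 25 of 41, 26 of 40, 25 of 39 and 27 of 43 NEAT1 windows were called, without replicates 1, 2, 3 and 4 in that order. In the same fits 5.69%, 6.72%, 7.37% and 6.54% of all tested windows were higher.

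The highest NEAT1 window, 0.35 kb from the 5' end (65423101 to 65423200), had log2 folds of 2.50, 3.11, 2.44 and 3.60 in replicates 1 to 4. Its mean was 2.91 ± 0.55 (SD, n = 4, limma adjusted p = 0.00399). The next were its neighbours on either side, at 2.78 ± 0.48 and 2.76 ± 0.43. The lowest window was 17.8 kb from the 5' end (65440501 to 65440600), with 1.68, 0.89, 1.00 and 1.87 (mean 1.36 ± 0.49, limma adjusted p = 0.0246).

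The middle of NEAT1 was covered in replicate 4 and hardly in the others. The longest stretch without a peak in replicates 2 and 3 ran from 7.07 to 14.6 kb. It held 1 peak in replicate 1 and 15 in replicate 4, while outside it the lists had 52, 51, 52 and 56. The 15 peaks of replicate 4 had log2 folds from 1.05 to 2.87 with a mean of 1.93, and 8 of them had a −log10 p of at least 3. The single peak of replicate 1 was at 2.24. The stretch was chosen after the values were seen, and what set replicate 4 apart was not tested.

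**Figure D2:**
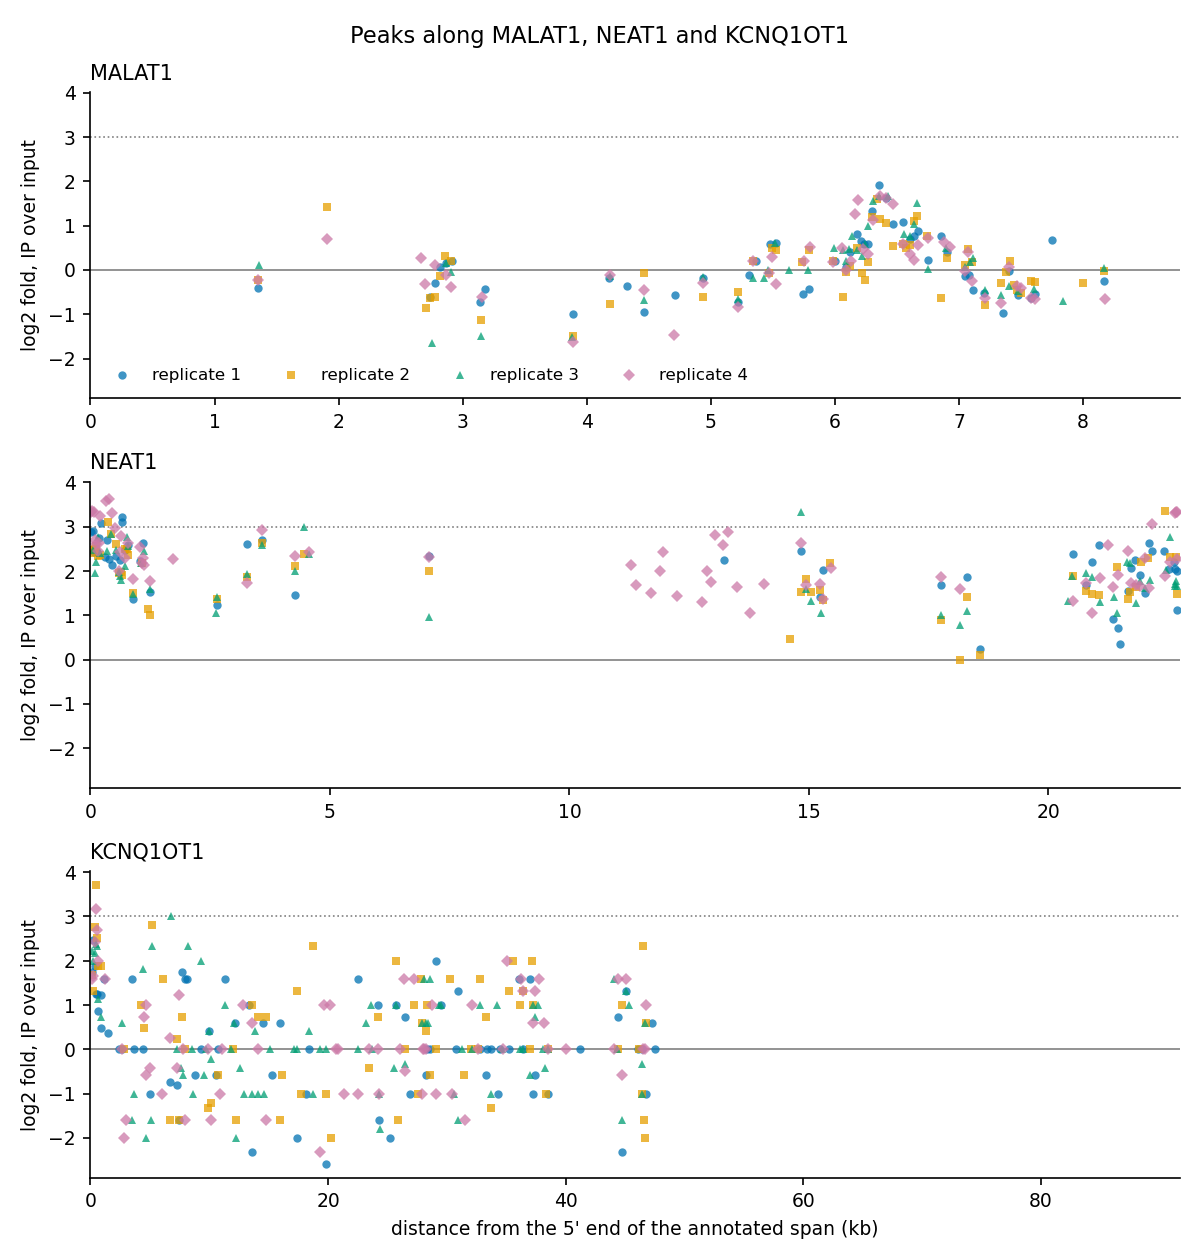
Log2 fold of IP over input of each peak against its distance in kb from the 5' end of the annotated span, for MALAT1, NEAT1 and KCNQ1OT1, with the 4 replicates in 4 colours; the solid line is 0 and the dotted line the log2 fold of 3 used for enriched peaks. MALAT1 peaks rise near 6.4 kb, NEAT1 peaks crowd at both ends above 0, and high KCNQ1OT1 peaks sit in the first kb.

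Windows of MALAT1 passed the test as higher than input at a single place, near 6.4 kb. When the span was cut into 10 equal parts, the stretch from 6.15 to 7.02 kb had means of 0.89, 0.60, 0.91 and 0.88 in replicates 1 to 4 (mean 0.82 ± 0.15, SD, n = 4). All other MALAT1 peaks together averaged −0.25, −0.16, −0.19 and −0.22 (mean −0.20 ± 0.04). In that stretch 43 of 60 peaks had a log2 fold above 0.5 and 1 of 60 was below −0.5, against 8 and 38 of the 139 peaks elsewhere. The stretch was picked for its level among the parts with a peak in every list, so this contrast is a description. The part from 1.76 to 2.63 kb had a higher mean, 1.06, from 2 peaks near 1.9 kb. They were at 1.42 in replicate 2 and 0.69 in replicate 4.

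The highest MALAT1 peak lay at the same spot in every list, between 6.34 and 6.36 kb. Its log2 fold was 1.92, 1.60, 1.68 and 1.67 (mean 1.72 ± 0.14, SD, n = 4). All 17 MALAT1 peaks with a −log10 p of at least 3 lay between 65503908 and 65504366, or 6.19 to 6.60 kb, with 4, 4, 4 and 5 in replicates 1 to 4. Over all peaks of the 4 lists, 1.11% had such a p. None of the 17 reached a log2 fold of 3.

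Of the 87 whole windows of MALAT1, 38 were tested, 3 (7.89%) were higher than input and 1 (2.63%) lower, against 24.6% and 1.92% of all windows. The median of the 38 was −0.09. The 3 higher windows adjoined each other from 65504001 to 65504300. The highest of them (65504101 to 65504200) had log2 folds of 1.58, 0.98, 1.67 and 1.60 (mean 1.46 ± 0.32, limma adjusted p = 0.0144). The other two had means of 1.33 ± 0.18 and 0.92 ± 0.24 (limma adjusted p = 0.0150 and 0.0473). With 1 replicate left out, 0 windows were called higher without replicate 1, 3 or 4, and 1 without replicate 2, in fits that called 5.69% to 7.37% of all windows. The mean of the highest window stayed between 1.39 and 1.62 in them.

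The lower window of MALAT1 was at 3.91 kb (65501601 to 65501700), with log2 folds of −1.0, −1.50, −1.52 and −1.63 (mean −1.41 ± 0.28, limma adjusted p = 0.0147). It was called without replicate 1 as well, but not without replicate 2, 3 or 4, with means from −1.55 to −1.34. In replicates 1, 2 and 4 it held the lowest MALAT1 peak, and in replicate 3 the lowest was at 2.75 kb with −1.65. The stretch around it, from 3.51 to 4.39 kb, had the lowest mean of the 10 parts, at −0.84 ± 0.25 over 9 peaks. The first 50% of the MALAT1 span averaged −0.39 ± 0.18 and the rest 0.22 ± 0.05. That difference of −0.61 ± 0.22 was negative in 4 of 4 replicates (exact sign-flip p = 0.125, adjusted over the 3 RNAs 0.188).

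By mean, KCNQ1OT1 was above input in its first kb and close to input over the rest of the stretch with peaks. The first 1000 nt held 6 to 8 peaks per list, with means of 1.39, 2.25, 1.85 and 2.26 in replicates 1 to 4 (mean 1.94 ± 0.41, SD, n = 4). The other 62 to 77 peaks per list averaged 0.09 ± 0.07. Of the 28 peaks in the first 1000 nt, 27 had a log2 fold above 0.5 and 0 were below −0.5. Of the 268 others, 98 were above 0.5 and 80 below −0.5. This cut too was chosen after the profile was seen. The difference of 1.85 ± 0.36 was above that of 99.1% of the 4199 genes.

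All 6 KCNQ1OT1 peaks with a −log10 p of at least 3 lay from 2699498 to 2699692, or 0.36 to 0.46 kb. There were 0, 2, 2 and 2 in replicates 1 to 4, on average 2.04% of its peaks, against 1.11% of all peaks. Of the 916 whole windows, 24 were tested. Of these 6 (25%) were higher than input, a share near the 24.6% of all windows, and 0 were lower (limma), and at an unadjusted p under 0.05 the lower ones were 0 too. The 6 higher windows adjoined each other at the 5' end, from 2699301 to 2699900, with means from 1.47 to 2.56 (limma adjusted p from 0.00496 to 0.0227). The highest (2699501 to 2699600) had log2 folds of 1.38, 3.53, 2.34 and 3.0 (mean 2.56 ± 0.93, limma adjusted p = 0.0112). Without replicates 1, 2, 3 and 4 in turn, 3 of 29, 5 of 30, 2 of 30 and 2 of 35 windows were called, where all windows gave 5.69% to 7.37%.

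The remaining 18 tested windows of KCNQ1OT1, from 4.44 to 46.4 kb, had means from −0.87 to 0.76 and did not pass. In 17 of the 18 the replicates differed in sign. In some this rested only on values at the commonest log2 fold of a list, close to 0. The window from 2695501 to 2695600, for example, had −0.00087, 0.49, 1.81 and 0.74. Some neighbouring windows held the same peaks and so had the same values. The lowest of the 18 (2655201 to 2655300) had log2 folds of −2.32, 1.00, −1.58 and −0.59 (mean −0.87 ± 1.44, limma adjusted p = 0.323). In the 4 lists 23.6% ± 5.78 of KCNQ1OT1 peaks sat within 0.0001 of the commonest log2 fold of their list, a value near 0. The same held for 41.8% ± 0.955 of all peaks, for 1 NEAT1 peak and for 4 MALAT1 peaks. The last peak was 47.5, 46.7, 46.7 and 46.8 kb from the 5' end, and no list had a peak from 55 kb to the end of the span. Without its first 1000 nt, KCNQ1OT1 minus all peaks changed sign, from 0.09 to −0.084.

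An eCLIP peak is customarily called enriched when its log2 fold and its −log10 p both reach 3, and 0.818% of all peaks met this. MALAT1 had 0 in every list, NEAT1 had 3, 2, 2 and 11 in replicates 1 to 4, and KCNQ1OT1 had 0, 1, 0 and 1. The NEAT1 mean of 4.5 ± 4.36 per list rested on replicate 4, and was 2.33 without it. NEAT1 met the limit on p far more often than the limit on fold, with 42, 33, 37 and 55 peaks at a −log10 p of at least 3. These were 73.1% of its peaks on average, against 1.11% of all peaks. With the limit on the log2 fold lowered to 2, it had 33, 24, 19 and 39 (50.2% on average, against 1.05% of all peaks).

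Merged over the lists, the enriched peaks formed 15 regions on NEAT1 and 1 on KCNQ1OT1, and none recurred in 3 or 4 lists. Only peaks that overlapped by at least 1 nt were merged, so adjoining pieces of a stretch counted as separate regions. On NEAT1, for example, 65445428 to 65445460 and 65445461 to 65445468 were counted apart. Of all 3371 enriched regions in the series, 358 (10.6%) were enriched in 3 lists and 552 (16.4%) in all 4. On NEAT1, 13 regions (86.7%) were enriched in 1 list and 2 (13.3%) in 2 lists, against 52.8% and 20.2% of all regions. These 2 and the KCNQ1OT1 region are named here after their values were seen. The NEAT1 region from 65423105 to 65423206 had log2 folds of 2.71, 3.11, 2.83 and 3.62, and the one from 65422980 to 65423039 had 3.09, 2.37, 2.78 and 3.23. The KCNQ1OT1 region from 2699500 to 2699582 had 1.87, 3.70, 2.38 and 3.17. All 4 lists had a peak in each of these regions, and the replicates lay on either side of the threshold.

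**Figure D3:**
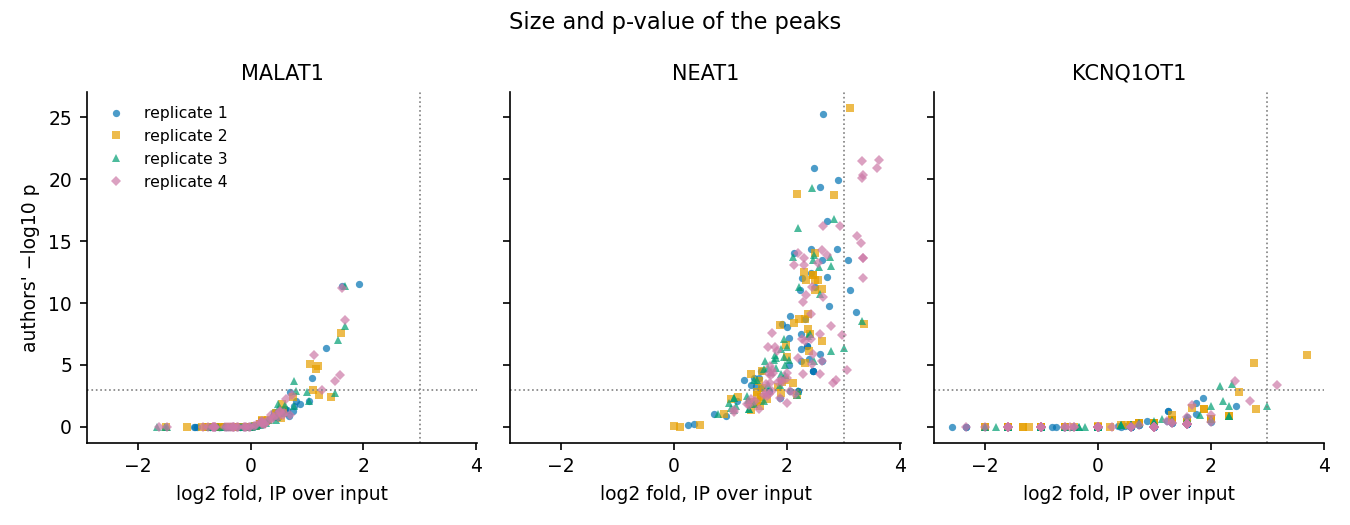
The authors' −log10 p of each peak against its log2 fold of IP over input, for MALAT1, NEAT1 and KCNQ1OT1 in the 4 replicates; dotted lines mark 3 on both axes. MALAT1 has no peak to the right of a log2 fold of 3, most NEAT1 peaks lie above a −log10 p of 3 but left of the fold limit, and 6 KCNQ1OT1 peaks pass the limit on p.

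The highest peak of each RNA shows how far replicates shared a position. On NEAT1 it reached 3.22, 3.36, 3.32 and 3.62 in replicates 1 to 4, but at 0.669, 22.4, 14.8 and 0.384 kb. On KCNQ1OT1 it reached 2.46, 3.70, 3.0 and 3.17, in the first kb in replicates 1, 2 and 4. In replicate 3 it was at 6.75 kb, with a −log10 p of only 1.67. The position was thus shared by all 4 lists on MALAT1 alone.

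MALAT1 also had the most repeatable peaks. A MALAT1 peak was overlapped by a peak in all 3 other lists in 92.5% ± 0.58 of cases (SD, n = 4), against 18.4% ± 0.50 of all peaks. The share was 84.9%, 78.4%, 78.8% and 69% for NEAT1 in replicates 1 to 4, where replicate 4 had 16 peaks found in no other list. It was 25.5% ± 2.07 for KCNQ1OT1. Peaks covered 25.3% to 26.3% of the MALAT1 span, 10.5% to 13.2% of NEAT1 and 3.65% to 4.33% of KCNQ1OT1, and denser cover makes overlap likelier by itself. Across windows with a peak in all lists, Spearman's rho of the log2 fold between pairs of replicates was 0.729 to 0.875 for MALAT1 (38 windows), 0.447 to 0.706 for NEAT1 (39) and 0.243 to 0.690 for KCNQ1OT1 (24). It was 0.496 to 0.516 over all 75794 windows. Windows of one RNA share libraries and neighbouring peaks, so these are descriptions.

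Set among other genes, NEAT1 was near the top and the others in the middle. Of 1013 genes with at least 50 peaks in each list, 13 had a higher mean log2 fold than NEAT1, and 98.6% were lower. The median gene was at 0.09 and the 95th percentile at 1.23. KCNQ1OT1 had 288 genes above it. MALAT1, which itself fell short of 50 peaks in replicate 3, had 484 above it. Of the 41 lncRNA genes among the 1013, NEAT1 was second, after RTEL1-TNFRSF6B at 2.27 ± 0.21, a readthrough gene that shares its span with coding genes. The next was LIPE-AS1 at 0.42 ± 0.13, and KCNQ1OT1 was eighth.

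The genes most like each RNA were sought over the 4 replicates, by distance in the mean log2 fold and in the share of peaks above 0.5. For NEAT1 they were BOP1 (distance 0.748, mean 2.11 ± 0.16), BRSK2 (1.00, mean 2.14 ± 0.04) and AGAP3 (1.32, mean 2.03 ± 0.05). BOP1 encodes a factor of ribosome biogenesis and BRSK2 a kinase of neurons. For KCNQ1OT1 they were PFKFB3, a regulator of glycolysis, RBM33 and CMIP, with means of 0.24 ± 0.04, 0.25 ± 0.11 and 0.26 ± 0.05. For MALAT1 they were LDLRAD3, ZNF618 and SMG6, a nuclease of nonsense-mediated decay, with means of 0.09 ± 0.03, 0.15 ± 0.06 and 0.06 ± 0.08. All of these values come from the same 4 lists, and likeness here means level alone.

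Other lncRNAs did not share the NEAT1 level as a group. Of 22 such genes on a list of nuclear or widely expressed lncRNAs, 19 had peaks in every list, and the median of their means was −0.14, against 0.04 over 14266 genes. An enriched peak in at least 1 list was found in 4 of the 19 (PVT1, FTX, MIAT and GAS5), or 21.1%, against 8.57% of all genes. The genes were not matched for number of peaks, and more peaks give more chances of an enriched one. In limma's test 74 of the 373 windows of these lncRNAs were higher (19.8%) and 31 lower (8.31%). Over all windows tested 24.6% were higher and 1.92% lower. MIAT, another RNA of nuclear bodies, came nearest to NEAT1, with means of 1.71, 1.51, 1.84 and 1.91 (mean 1.74 ± 0.17, SD, n = 4) and 7 of 8 windows higher. MIR17HG, the host of a microRNA cluster, had a mean of 1.04 ± 0.25 with 12 of 33 windows higher.

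NEAT1 holds paraspeckles together with a set of proteins, and the transcripts of those proteins were bound unevenly. All 14 paraspeckle protein genes had peaks in every list, and the median of their means was 0.05. Of these, 5 (35.7%) had an enriched peak in at least 1 list, against 8.57% of all genes, again not matched for number of peaks. In limma's test 98 of 358 windows were higher (27.4%) and 5 lower (1.40%), against 24.6% and 1.92% of all windows. DAZAP1, an hnRNP-like protein, led with 1.81, 1.69, 1.80 and 1.53 (mean 1.71 ± 0.13) and 53 of 72 windows higher. The core paraspeckle proteins differed, with SFPQ at 0.71 ± 0.16, NONO at −0.06 ± 0.20 and PSPC1 at −0.24 ± 0.24.

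The 9 genes of nuclear speckle proteins, the bodies where MALAT1 resides, all had peaks in every list, with a median of 0.43. Of these, 4 (44.4%) had an enriched peak in at least 1 list, against 8.57% of all genes, again not matched for number of peaks. In limma's test 54 of 202 windows were higher (26.7%) and 3 lower (1.49%, against 1.92% of all windows). U2AF2, the large subunit of a splicing factor that reads the 3' splice site, had 2.04, 1.55, 2.03 and 2.02 (mean 1.91 ± 0.24) with 16 of 24 windows higher. SON, a scaffold of speckles, had 1.02 ± 0.22. SRSF2, a classical speckle marker, had −0.47 ± 0.33. In both sets of protein genes the share of higher windows was near the 24.6% of all windows.

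**Figure D4:**
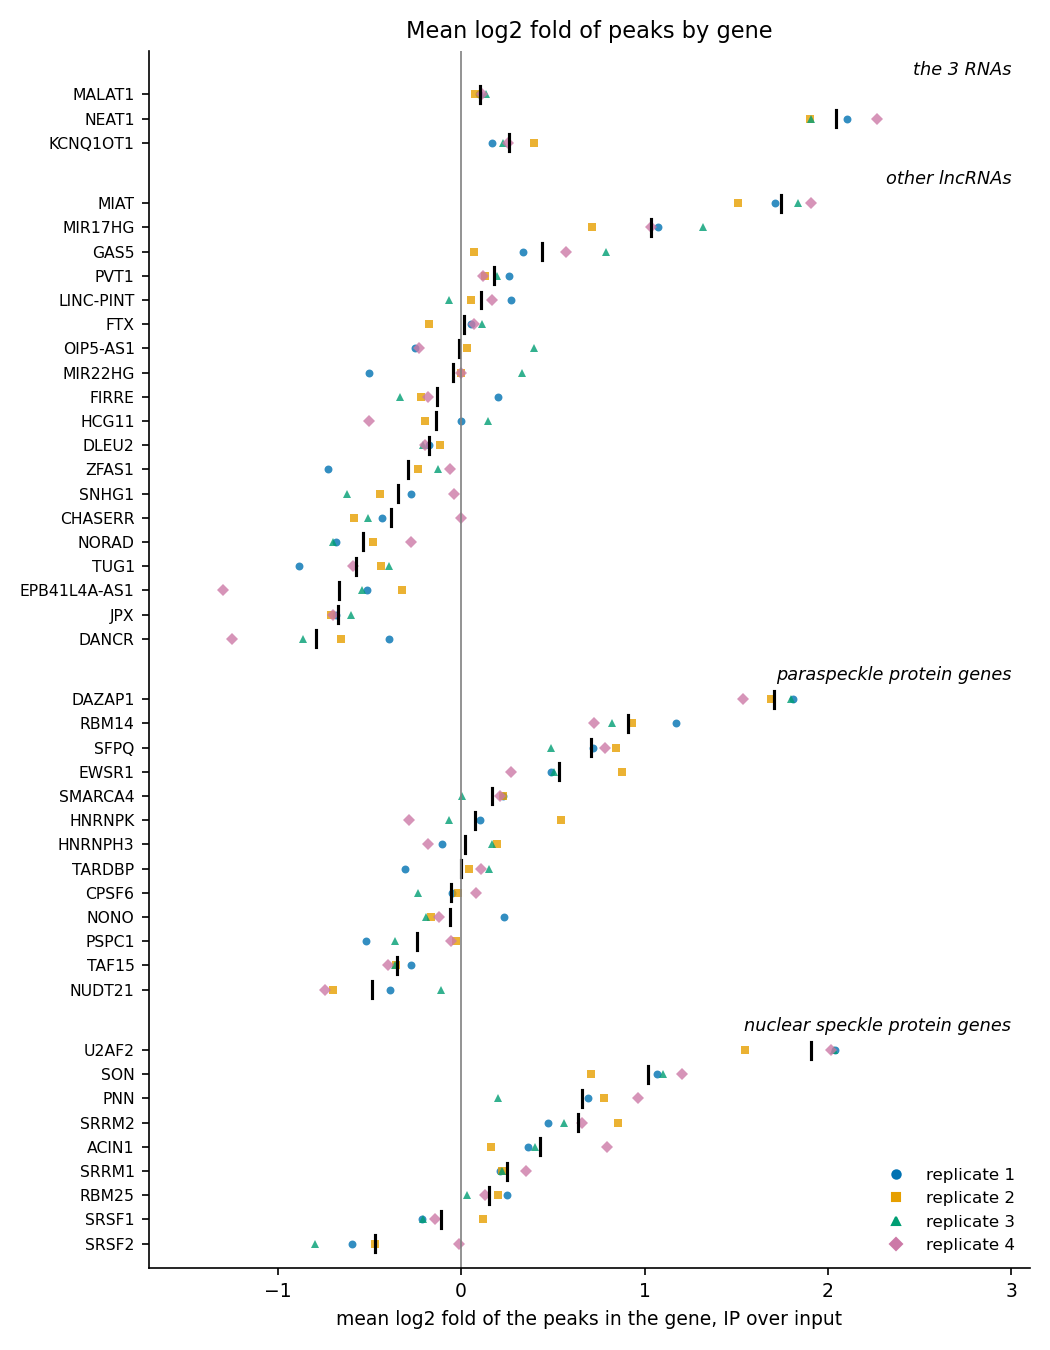
Mean log2 fold of IP over input of the peaks in each gene, for MALAT1, NEAT1 and KCNQ1OT1 and for genes of the 3 comparison lists with peaks in every list, 1 paraspeckle protein gene left out; points are the 4 replicates and the black bar their mean. NEAT1 (2.04) lies to the right of every other gene drawn, with U2AF2 (1.91), MIAT (1.74) and DAZAP1 (1.71) next.

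The peaks followed the strand of the RNA. On the opposite strand of the same spans there were 0 peaks for MALAT1 and NEAT1 in every list, and 1, 1, 0 and 0 for KCNQ1OT1. The strands were too empty to compare levels. TALAM1, the antisense partner of MALAT1, and CDKN1C, an imprinted gene near KCNQ1OT1, had no peak on their own strand. KCNQ1, which holds KCNQ1OT1 on its other strand, had 17 to 23 peaks per list on the plus strand with a mean of 0.14 ± 0.03, all but the peaks just counted outside the KCNQ1OT1 span. FRMD8, a neighbour of NEAT1, was near input too, at 0.18 ± 0.21.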

How the data were processed

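Reads were handled with UMI-tools 1.1.1, cutadapt 3.2 and STAR 2.7.7a on hg38 (GRCh38.p13), per the submitters' processing notes. The peak caller, its p-value test, the scaling of IP to input and any filters are not given in the sources used here. The authors deposited 1 list without header per IP library, already compared with its own input. From their ranges, the deposited values were taken as a −log10 p-value and a log2 fold of IP over input. Read counts were not used here, so the depth behind a fold is unknown and folds carry no counting interval.

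Gene spans came from a RefSeq table of GRCh38.p14. Strands came from the table of promoters where it holds the gene and from general knowledge for NEAT1 and KCNQ1OT1; for a few comparison genes the strand with more peaks was taken. Of the 3 RNAs, 1 had a promoter sequence there. A window took the length-weighted mean log2 fold of its peaks. Windows were tested with limma 3.58.1 (two-sided, an intercept alone, no variance trend) in R 4.3.3, after the script was tested on simulated data. Tests over replicates were exact sign-flip permutations. Python 3.11.15, numpy 2.4.6 and pandas 2.3.3 were used.

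Values of 2 comparison genes are not reported here. Named windows are the 3 highest and 3 lowest per RNA, and the rule for regions, enriched in at least 3 lists, named none. The RNAs, lists and rules were chosen with earlier results of these data known. Alternatives covered window size, membership, summary, thresholds, variance model and replicates.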

Additional observations from a re-analysis of the deposited data

Results flagged for a closer look

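Of 33 groups of 4 replicate values, 7 had a replicate far from the other 3. For independent, continuous values chance would flag about 1 in 20 groups, or 1.65 of 33. The groups here include small tied counts, overlapping measures of a replicate and windows named as extremes. The 7 can therefore not be judged against the 1.65. For NEAT1, replicate 4 stood apart with 71 peaks against 53, 51 and 52, and with 11 enriched peaks against 3, 2 and 2. For MALAT1, replicate 4 had 5 peaks whose −log10 p reached 3 and each of the others had 4, and in the window at 6.41 kb replicate 2 was at 0.98 where the others were between 1.58 and 1.67. For KCNQ1OT1, replicate 1 had 0 such peaks and each of the others had 2, and replicate 2 had 49.3% of peaks with a log2 fold above 0.5 against 39.2%, 40.5% and 40.6%. In the KCNQ1OT1 window at 38.4 kb replicate 1 was at −1.0, and the other 3 were at the commonest log2 fold of their lists, close to 0. Where the values are counts of 0 to 5, a single peak is enough to set a replicate apart.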

How the results depend on the processing

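Of 71 alternatives for the sign-flip comparisons, 69 kept their direction, but many of them could not have changed it. Membership by any overlap with the span gave the same values as by midpoint. MALAT1 had no peak in the first 1000 nt to leave out. Where all replicates shared a sign, leaving out a replicate cannot reverse the mean. MALAT1 minus all peaks became 0.083 with the median over peaks, and KCNQ1OT1 minus all peaks became −0.084 without the first 1000 nt, an alternative chosen after seeing the data. Without replicate 1 the KCNQ1OT1 windows at 13.6 and 38.4 kb changed sign; leaving out each replicate gave −0.91 to 0.20 and −0.33 to 0.000562. The cause was not tested.

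Enriched peaks per list, at a log2 fold of at least 1, were 4 for MALAT1, 41.75 for NEAT1 and 1.5 for KCNQ1OT1. These were 8.02%, 73.1% and 2.04% of their peaks, against 1.11% of all peaks. They gave 1, 19 and 1 regions in at least 3 lists, and no count over all regions is given at that limit. At a log2 fold of at least 2 they were 28.75 for NEAT1 (50.2%) and 1.5 for KCNQ1OT1 (2.04%), against 1.05% of all peaks. A −log10 p of at least 5 left 0.25 for KCNQ1OT1 (0.362%, against 0.452% of all peaks). Leaving out each replicate gave 2.33 to 5.33 for NEAT1 and 0.333 to 0.667 for KCNQ1OT1. MALAT1 stayed at 0.

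Windows of 50 nt gave 64 of 64 higher for NEAT1, 12 of 33 for KCNQ1OT1, and 5 higher and 2 lower of 60 for MALAT1. Of all such windows 29.7% were higher and 2.17% lower. Windows of 200 nt gave 1 of 23 higher for MALAT1 and 4 of 22 for KCNQ1OT1, with 19.1% of all windows higher. Merged peaks gave 25 of 25 higher for NEAT1 and 1 of 15 for KCNQ1OT1, with 21.1% of all merged peaks higher. Against a log2 fold of 1, 15 NEAT1 windows, 1 KCNQ1OT1 window and 0 MALAT1 windows in either direction passed, with 7.90% of all windows higher. A variance trend gave 2 lower windows of 38 for MALAT1, with 1.97% of all windows lower. Leaving out each replicate gave 25 to 27 higher for NEAT1, 2 to 5 for KCNQ1OT1, and 0 to 1 higher and 0 to 1 lower for MALAT1. In those fits 5.69% to 7.37% of all windows were higher and 0.372% to 0.455% lower.

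No paired analysis was possible because the pairing of an IP with its input is already inside each fold, and input values of their own were not used here. The comparison of strands was not run, with its alternatives, since the opposite strand held under 10 peaks. Without read counts, the precision of a single fold is unknown, and this touches KCNQ1OT1 most, where many folds sit at a few repeated values.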

Other observations

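Several of the other lncRNAs lay below input rather than above it. The share of windows lower than input was 8.31% over that list, against 1.92% of all windows tested (limma, adjusted p of at most 0.05), and the 31 lower windows came from 9 of the 16 genes with a tested window. JPX, from the X inactivation centre, held 7 lower and 2 higher windows of 42. FTX, from the same centre, held 7 lower and 16 higher of 80, with a mean log2 fold of 0.02 ± 0.13. GAS5, a host of small nucleolar RNAs, held 6 lower and 6 higher among 18, with a mean above input at 0.44 ± 0.31. Enriched peaks were found in FTX in 4 lists and in GAS5 in 2. The mean log2 fold of the peaks was −0.67 ± 0.05 for JPX, −0.58 ± 0.22 for TUG1 and −0.53 ± 0.20 for NORAD, an RNA that binds Pumilio proteins (SD, n = 4 for each). DANCR was lowest, with −0.40, −0.65, −0.86 and −1.25 in replicates 1 to 4 (mean −0.79 ± 0.36). MEG3, SNHG14 and CYTOR, whose annotated strand is plus, had 0 peaks on it in every list, and SNHG14 had 22 to 29 on the minus strand.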
